A study of Sciaenops ocellatus with 24 samples.

Results

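The comparison described here set whole red drum larvae exposed to slick oil at 2.50% against the unexposed larvae of the same experiment. It covered every miRNA name in the count table of that comparison, in 6 libraries, 3 exposed and 3 control, of the 24 libraries of the study. Of the listed names, 121 were counted in all 6 libraries and 84 (41.0%) were at 0 in at least 1. Red drum (Sciaenops ocellatus) is a marine fish of the Gulf of Mexico. Slick oil is Deepwater Horizon oil skimmed off the Gulf surface after natural weathering. It was blended into seawater as a high-energy water accommodated fraction, and 2.50% is the share of that preparation, by volume, in clean seawater. The control libraries came from the same experiment and are labelled with concentration 0.

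All 6 libraries were small RNA from pooled animals at 48 hours post fertilization. The tissue label reads whole larva and the source label whole embryo, and no strain or other treatment separates the groups. All embryos had come from hatchery brood stock and had a formalin treatment before the exposures, which both groups share. Whether replicates were separate spawns or tanks is not in the labels, so the spread that the p-values rest on is that between these libraries and may be technical. Libraries are called control 1 to 3 and exposed 1 to 3 after the numbers in their labels.

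MicroRNAs are short RNAs that guide the Argonaute proteins to messenger RNAs, mostly lowering their translation or stability. Many are made mainly in 1 tissue, such as miR-206 in skeletal muscle, miR-122 in liver or miR-144 in red blood cells. In whole-animal RNA a lower level can mean fewer cells of a type or less of the miRNA per cell, and these cannot be told apart. The roles given below are those known from zebrafish, mouse or human. Names carry species prefixes (ssa for Atlantic salmon, ola for medaka, dre for zebrafish), and the arm in a name, 5p or 3p, was not checked against reads. Reads of 1 red drum miRNA can be counted under several names, so near-identical names are uncertain as separate miRNAs.

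Total counts were 8316480 to 9039983 in the controls and 4851955 to 7856249 in the exposed libraries. Defining miRNAs of the larval tissues were counted in all 6 libraries, among them miR-206 of muscle, miR-9 and miR-128 of nerve cells, miR-122 of liver, miR-144 and miR-451 of red blood cells, miR-184 and miR-204 of the eye, and miR-203 and miR-205 of skin. Others were counted in control 1 and at 0 in the other 5 libraries, namely miR-1 of muscle, miR-183 of sensory cells, miR-192 of gut and liver and miR-143 of smooth muscle, as were miR-139, miR-190 and miR-489. To be tested, a name needed a count of 10 or more in 3 or more libraries. This kept 156 names, of which 117 were counted in every library. Levels below are CPM, the count of a name in each 1000000 counts of the 117 names, scaled by TMM.

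No miRNA name differed between exposed and control larvae past an adjusted p of 0.05 in edgeR's quasi-likelihood test. That was 0 of 156 names (0%), with 4 (2.56%) at an unadjusted p under 0.05, and 0 of the 117 names counted in every library (0%), with 8 (6.84%) at an unadjusted p under 0.05. Of these 8 names 5 (4.27% of the 117) were higher and 3 (2.56%) lower, and the smallest adjusted p was 0.656 (0.990 over all names). DESeq2 called 1 of the 156 names (0.641%), ssa-miR-734-5p, with 15 (9.62%) at an unadjusted p under 0.05, and 0 of the 117 (0%), with 9 (7.69%). The authors' deposited table held 5 of 200 names (2.5%) with an FDR under 0.05. Exposed 1 and exposed 2 each decided calls among all names: without exposed 1 edgeR called 2 names, ssa-miR-200a-2-5p and xtr-miR-138, and without exposed 2 it called 2 others, oar-miR-16b and ssa-miR-727-3p. All 4 were lower, and each was then at 0 in both remaining exposed libraries. Another name of each number was counted there. In exposed 2 and 3, sha-miR-200a had 10298 and 61931 counts and mdo-miR-138 had 186 and 791. In exposed 1 and 3, aca-miR-16a-5p had 1784 and 2199 counts and aca-miR-727-5p had 6701 and 2061. The standard error of the log2 fold change was 0.32 for the median name of the 117 and at its lowest 0.20.

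The groups did not overlap, with all 3 exposed libraries on 1 side of all 3 controls, for 18 of the 156 names (11.5%), 4 higher (2.56%) and 14 lower (8.97%). Among the 117 they did not overlap for 16 (13.7%), 4 higher (3.42%) and 12 lower (10.3%). The 4 higher names were pma-miR-203a-3p, ssa-miR-734-5p, ssa-miR-23b-5p and efu-miR-27b. These counts depend on the scaling, as an alternative chosen after seeing the data showed. Library total, here and below wherever the 117 names are compared, means the summed counts of those names in a library. It is not the total count given above. The share of all counts that the 117 names held was lowest in control 1 and highest in exposed 3. Scaling by the total counts of all names was not run. By library totals in place of TMM 6 of the 117 names were higher (5.13%) and 5 lower (4.27%), and of the names above only 3 of the 4 higher and 4 of the 12 lower kept groups that did not overlap. They were pma-miR-203a-3p, ssa-miR-734-5p, ssa-miR-23b-5p, ssa-miR-144-3p, ola-miR-130c, ipu-miR-130c and ssa-miR-18a-5p. With RLE size factors 6 were higher (5.13%) and 11 lower (9.4%). The fold changes, standard errors and p-values that follow are those of edgeR's quasi-likelihood test over the 117 names, with n = 3 against 3.

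ssa-miR-144-3p had the smallest p. It is made in red blood cells from 1 transcript with miR-451. It was at 353, 401 and 338 CPM in controls 1 to 3 and at 177, 260 and 120 CPM in exposed 1 to 3. Each exposed library lay below each control, with exposed 3 the lowest. The log2 fold change was -0.97 ± 0.31 (SE, edgeR adjusted p = 0.656). Its partner chi-miR-451-5p was at 17, 19.8 and 17.6 CPM in the controls and 13.0, 13.1 and 19.1 CPM in the exposed libraries, where exposed 3 reached the control range.

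The skin miRNA miR-203, which restrains the growth of epidermal progenitors, was counted as pma-miR-203a-3p. It was at 15160, 12821 and 12346 CPM in the controls and 17495, 25500 and 31393 CPM in the exposed libraries. Every exposed library was above every control, though exposed 1 only narrowly. The log2 fold change was 0.88 ± 0.30 (edgeR adjusted p = 0.656), and the authors' deposited table gave 0.86 with an FDR of 0.0320. The level of another skin miRNA, cgr-miR-205, was 3677, 3325 and 4510 CPM in the controls and 4123, 2831 and 3531 CPM in the exposed libraries, which overlap.

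ssa-miR-734-5p, a miRNA known from fish, was at 2713, 2059 and 2178 CPM in the controls and 3839, 3792 and 3437 CPM in the exposed libraries. The exposed libraries lay close together and all above the controls. The log2 fold change was 0.67 ± 0.24 (edgeR adjusted p = 0.656). The authors' deposited table gave 0.70 with an FDR of 1.68e-06.

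The authors' other 3 calls were smaller shifts with little spread among the exposed libraries. ssa-miR-23b-5p was at 259, 249 and 253 CPM in the controls and 355, 308 and 311 CPM in the exposed libraries. The name efu-miR-27b was at 2873, 2657 and 3303 CPM in the controls and 3702, 3725 and 3690 CPM in the exposed libraries. In both, of clusters that also hold miR-24, the groups did not overlap and the exposed values lay close together under TMM. ola-miR-430a, of the family that clears maternal messenger RNAs in the early zebrafish embryo, was at 672, 649 and 709 CPM in the controls and 552, 556 and 539 CPM in the exposed libraries. All 3 exposed libraries were thus below the controls, whereas by library totals exposed 3 was 0.03 above the control mean on the log2(CPM + 1) scale. By totals the groups of efu-miR-27b overlapped too, at 2558, 2739 and 3399 CPM against 3582, 3249 and 4629 CPM. The edgeR log2 fold changes of these 3 names were 0.36 ± 0.21, 0.33 ± 0.23 and -0.30 ± 0.21, each with an adjusted p of 0.707, beside 0.39, 0.36 and -0.27 in the authors' deposited table, where their FDR was 1.68e-06, 0.0457 and 0.000317. For oar-miR-23b (0.30) and the more abundant dre-miR-23a-3-5p (-0.04) the groups overlapped. In the test on the highest count per miRNA number described below, miR-23 had 0.03 with groups that overlapped. There miR-27 had 0.41 with groups that did not. Of miR-24, fru-miR-24-5p had -0.06 and mdo-miR-24-3p -0.61.

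**Figure D1:**
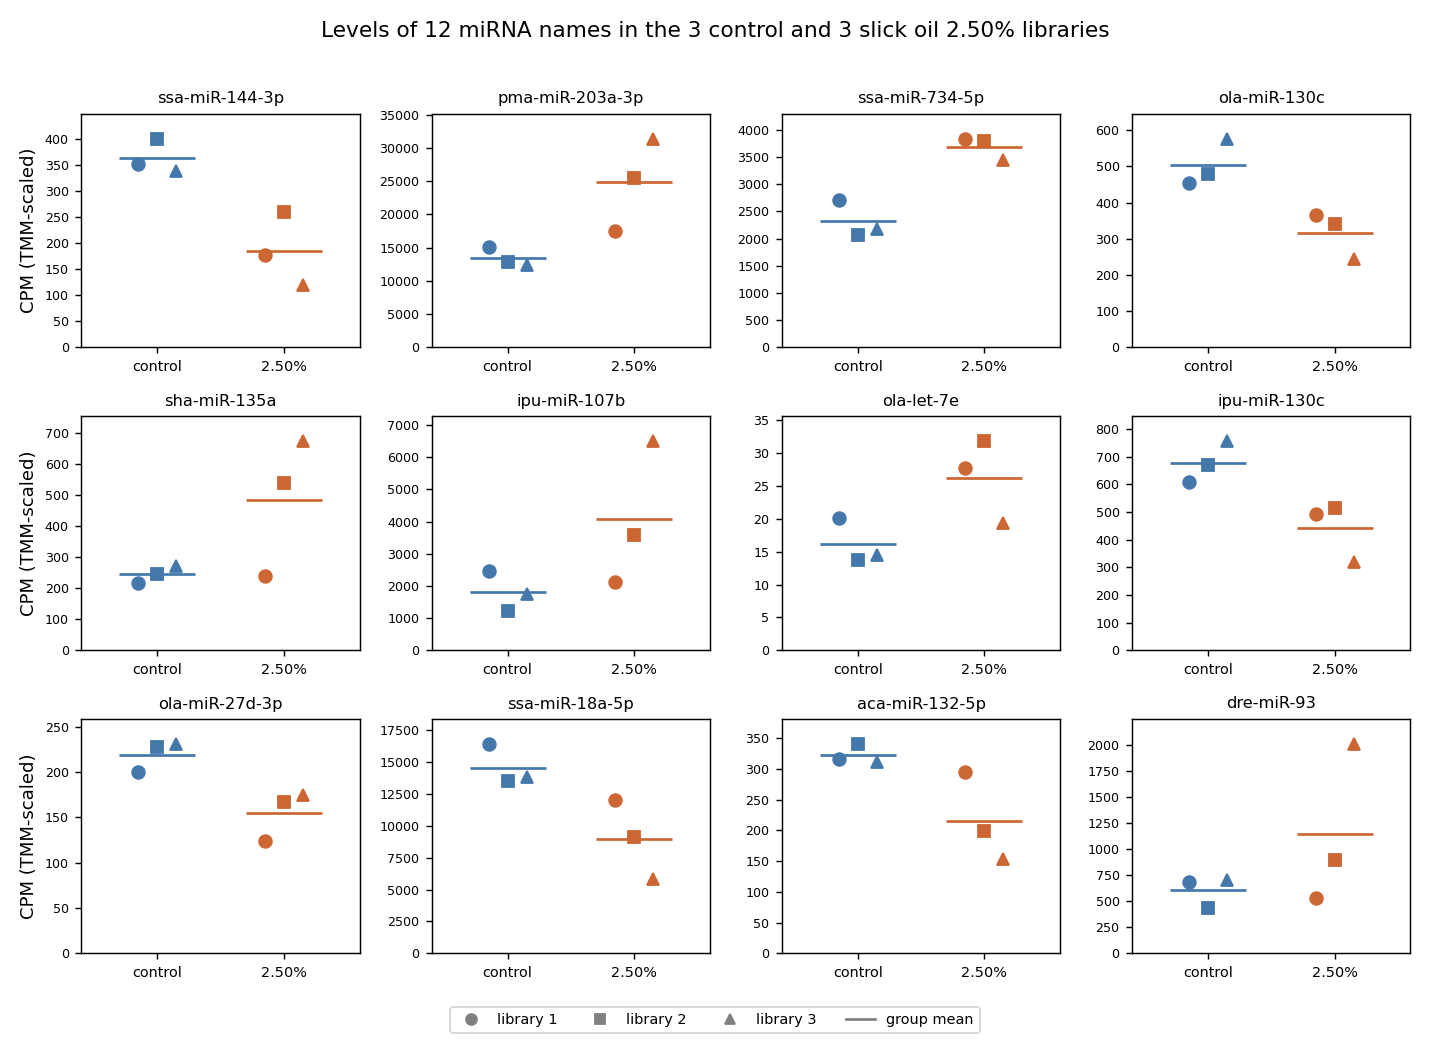
CPM (TMM-scaled, linear axis from 0) of the 12 names with the smallest p among names counted in every library, in the 3 control and the 3 slick oil 2.50% libraries, with a line at each group mean. ssa-miR-144-3p, pma-miR-203a-3p and ssa-miR-734-5p had groups that did not overlap, whereas sha-miR-135a, ipu-miR-107b and dre-miR-93 were high in exposed 2 and 3 or in exposed 3 and near the controls in exposed 1.

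Among lower names whose groups did not overlap, the blood and vessel list, which made up 13 of the 117 names, held 5 of 12. These 5 stood for 3 miRNA numbers, miR-144, miR-130 and miR-142. ola-miR-130c was at 454, 479 and 577 CPM in the controls and 365, 340 and 243 CPM in the exposed libraries, a log2 fold change of -0.67 ± 0.25 (adjusted p = 0.656). ipu-miR-130c, a second name of the number, was at 609, 668 and 754 CPM against 492, 515 and 318 CPM. A more abundant name of this number, hsa-miR-130b-5p, had 27876, 54338 and 40181 counts against 32681, 34682 and 20225. Its groups overlapped, and its log2 fold change was 0.08. In the tests per miRNA number described below the groups of this number overlapped. Its log2 fold change was then 0.12 for the highest count and 0.01 for the sum. The blood cell miRNA miR-142 was counted alike under ola-miR-142 and tgu-miR-142-5p, at 48.1, 60.2 and 50.3 CPM against 38.7, 22.3 and 45.5 CPM, with exposed 2 the lowest. By library totals exposed 3 was 0.14 above the control mean for this blood cell miRNA. Its groups overlapped as well in the tests per miRNA number.

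The other lower names without overlap belonged to several tissues. ssa-miR-18a-5p belongs to the miR-17-92 cluster of dividing cells. It was at 16384, 13517 and 13798 CPM in the controls and 12040, 9138 and 5795 CPM in the exposed libraries, a log2 fold change of -0.70 ± 0.33 (adjusted p = 0.707). aca-miR-132-5p, which responds to activity in neurons, was at 316, 340 and 311 CPM against 296, 199.2 and 152.8 CPM. For both, exposed 3 was the lowest and exposed 1 the nearest to the controls. ola-miR-194-5p, of gut and liver, was at 253, 287 and 280 CPM against 251, 116 and 200 CPM, so that exposed 1 all but met control 1. For ssa-miR-194b-5p, a less abundant name of this number, the groups overlapped and the log2 fold change was 0.13. In the tests per miRNA number described below the groups of miR-194 overlapped as well. oan-miR-145-5p, of smooth muscle, was at 1745, 1729 and 1654 CPM against 1626, 1046 and 1216 CPM, with exposed 1 again close to the controls. The most abundant name, aca-miR-9-5p, of neural progenitors, was at 396954, 381207 and 326323 CPM against 293385, 314652 and 302605 CPM, and its log2 fold change was -0.28 ± 0.20 (adjusted p = 0.707). By library totals exposed 3 was 0.08 above the control mean for aca-miR-9-5p, and the groups of aca-miR-132-5p, ola-miR-194-5p and oan-miR-145-5p overlapped as well.

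ola-miR-27d-3p was also lower, at 200, 227 and 230 CPM in the controls and 123.9, 167 and 174 CPM in the exposed libraries. By library totals exposed 3 was 0.03 above the control mean. The value in control 1 depends on which deposited table is read: control 1 held 1130 counts of this name in the tables of 1.25% and 2.50% and 572 in that of 5.00%. With 572 counts control 1 was at 92.3 CPM in the fit of 5.00% and the controls alone. That is below the exposed values given here, so the lack of overlap rests on the 1130 counts. The remaining lower names without overlap, among those not counted in every library, were ssa-miR-727-3p and ipu-miR-222a. ssa-miR-727-3p had 2387, 3398 and 3449 counts in the controls and 0, 826 and 0 in the exposed libraries. ipu-miR-222a had 21308, 24571 and 28851 counts against 0, 10670 and 12010, while ssa-miR-222a-5p, of the same number, was counted in all 6 libraries at 2282 to 4546 CPM. A second name of number 727, aca-miR-727-5p, was at 342 to 1034 CPM in the 6 libraries.

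Other names with a small p had groups that overlapped through 1 exposed library. sha-miR-135a was at 217.8, 247 and 271 CPM in the controls and 241, 540 and 674 CPM in the exposed libraries, a log2 fold change of 0.98 ± 0.38 (adjusted p = 0.656). ipu-miR-107b, from a pantothenate kinase gene in mammals, was at 2461, 1208 and 1740 CPM against 2128, 3591 and 6490 CPM, a log2 fold change of 1.17 ± 0.46 (adjusted p = 0.656). In both, exposed 1 lay within the control range. A more abundant name of number 135, ola-miR-135a, had 5893, 8836 and 9809 counts in the controls and 8130, 2940 and 7161 in the exposed libraries. Its groups overlapped, and its log2 fold change was -0.07. For ola-miR-135b the log2 fold change was 0.57, and the groups overlapped too. ola-let-7e, of the let-7 family that marks later development, was at 20.2, 13.8 and 14.4 CPM against 27.6, 31.7 and 19.4 CPM, and here exposed 3 lay between control 1 and the other controls. aca-miR-199a-5p, of connective tissue, was at 8962, 9562 and 9375 CPM against 14137, 15697 and 9403 CPM, with exposed 3 at the control level under this scaling.

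The exposed libraries differed from each other more than the controls did. On the log2(CPM + 1) scale the SD over the 3 exposed libraries was above that over the 3 controls for 102 of 117 names, and the median SD was 0.497 against 0.200. The exposed values ranged over more than 1 log2 unit for 52 names and the control values for 6. Among the 100 names counted in all 12 slick oil libraries, which were scaled together, the median SD was 0.182 in the controls, 0.240 at 1.25%, 0.504 at 2.50% and 0.181 at 5.00%. Total counts were 4440488 to 9306948 at 1.25% and 2820454 to 4346165 at 5.00%, and within 2.50% they were 7856249, 4851955 and 5166585 in exposed 1 to 3. The part of depth in the spread was not tested. The names with the largest exposed spread besides aca-miR-26-5p included the neuronal ipu-miR-218a, at 10301, 5006 and 3952 CPM in the controls and 10823, 1549 and 8852 CPM in the exposed libraries, and ola-miR-124-5p, at 461.6, 396 and 549 CPM against 348, 132.7 and 830 CPM. aca-miR-26-5p alternated in both groups, at 88718, 1070 and 92946 CPM in the controls and 109929, 927 and 54572 CPM in the exposed libraries.

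**Figure D2:**
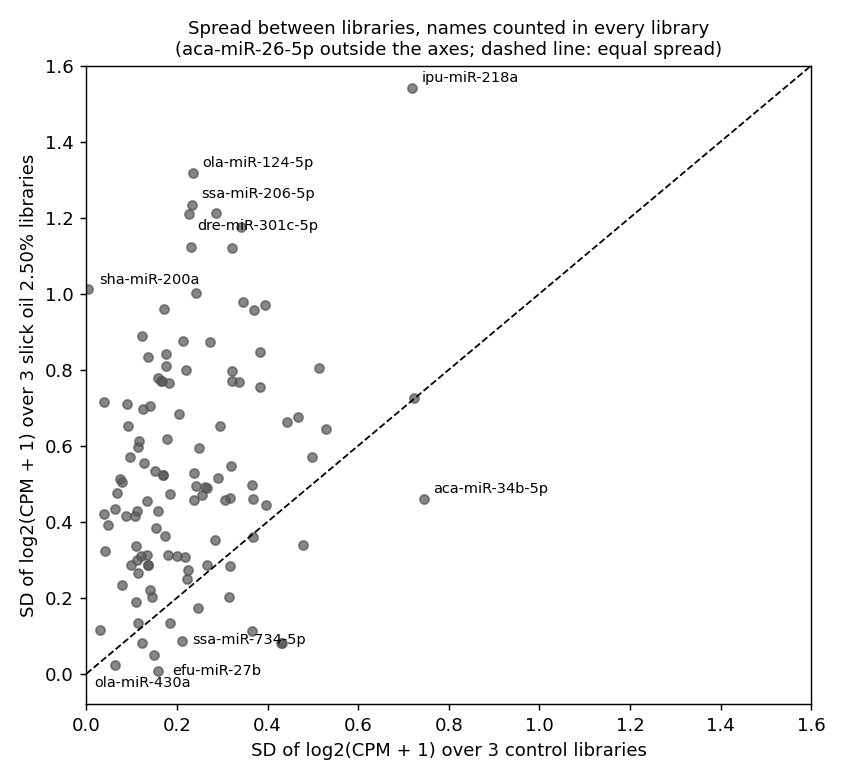
SD of log2(CPM + 1) over the 3 slick oil 2.50% libraries (vertical axis) against that over the 3 controls (horizontal axis). Points are the names counted in every library except aca-miR-26-5p, which is not drawn. For 102 of 117 names, aca-miR-26-5p among them, the exposed SD was above the control SD. ola-miR-430a, efu-miR-27b and ssa-miR-734-5p were among the names below the dashed line of equal spread.

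Exposed 2 and exposed 3 lay farther from the controls than exposed 1 did. Taken as the difference of a library from the control mean on the log2(CPM + 1) scale, exposed 1 was the farthest exposed library for 11 of the 117 names, exposed 2 for 45 and exposed 3 for 61. The median absolute difference was 0.196 in exposed 1, 0.476 in exposed 2 and 0.556 in exposed 3. Exposed 1 was more than 1 log2 unit above the control mean for 1 name and below it for 1, exposed 2 for 11 and 10, and exposed 3 for 13 and 14. Of the 117 names, exposed 2 and 3 lay on opposite sides of the control mean for 59, exposed 1 and 3 for 63 and exposed 1 and 2 for 42, and all 3 exposed libraries lay on the same side for 35. The TMM factors in the fit to the 156 names were 1.02, 0.774 and 1.29 in exposed 1 to 3, against 0.936 to 1.05 in the controls. The differences given here are scaled in the fit to the 117 names, which has its own factors. Scaled by library totals alone, exposed 3 had 26 names more than 1 log2 unit above and 6 below the control mean, with a median shift of 0.35 over the 117 names. By these totals the exposed SD was above the control SD for 104 names.

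**Figure D3:**
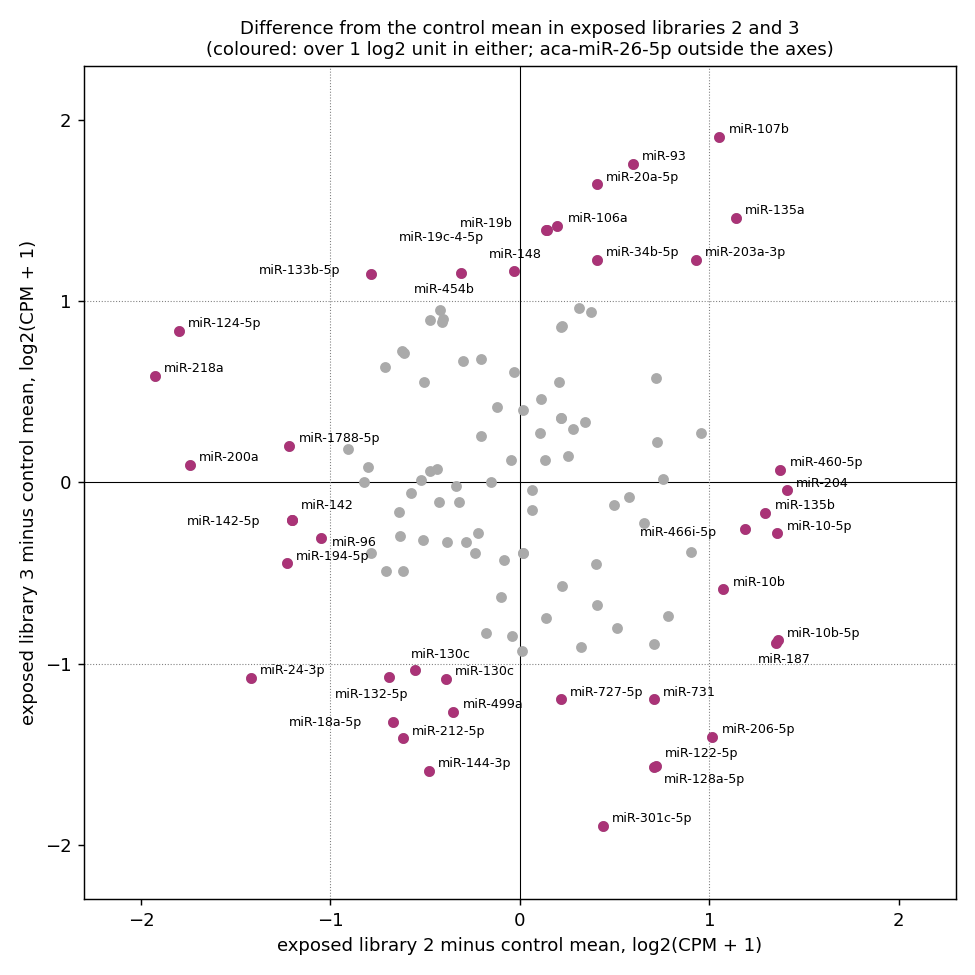
Difference from the control mean on the log2(CPM + 1) scale in exposed 2 (horizontal axis) and exposed 3 (vertical axis). Points are the names counted in every library except aca-miR-26-5p, which is not drawn. Names over 1 log2 unit in either are coloured and labelled without their species prefix. miR-107b, miR-135a (the name sha-miR-135a) and miR-203a-3p lay in the upper right. In contrast, miR-206-5p, miR-122-5p and miR-128a-5p were high in exposed 2 and low in exposed 3.

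The tissue lists below are by miRNA number with any species prefix, and their counts stand beside those of all 117 names, of which 60 had a log2 fold change above 0 and 57 below, with a median of 0.07. No list held a called name.

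Of the 3 muscle names tested in every library, 2 were above 0 and 1 below, with a median log2 fold change of 0.23. ssa-miR-206-5p, of skeletal muscle, was at 206469, 172495 and 149562 CPM in the controls and 202632, 353266 and 65941 CPM in the exposed libraries. Exposed 2 was thus above and exposed 3 below all controls, and the log2 fold change of 0.23 ± 0.52 (adjusted p = 0.906) averages both. ggo-miR-499a, from a muscle myosin gene, was at 4488, 6323 and 5150 CPM against 4748, 4131 and 2192 CPM. rno-miR-133b-5p, also of muscle, was at 359, 261 and 279 CPM against 462.2, 172 and 660 CPM. Its order over the exposed libraries was the reverse of that of ssa-miR-206-5p.

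The nervous system list had 5 names above 0 and 8 below, with a median of -0.04. The neuronal mdo-miR-128a-5p was at 46144, 73809 and 55804 CPM in the controls and 60883, 94095 and 19394 CPM in the exposed libraries, and its log2 fold change was -0.01 ± 0.52. As with miR-206, exposed 2 was the highest and exposed 3 the lowest of the 6. ssa-miR-137-5p was at 50.7, 56.3 and 65.6 CPM against 59.0, 71.2 and 112 CPM, and dre-miR-124-4-5p at 431, 364 and 506 CPM against 354, 421 and 656 CPM. In both of these exposed 3 was the highest, as it was for ola-miR-124-5p.

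The list of sensory organs and eye had 3 names above 0 and 1 below, with a median of 0.14. ola-miR-204, of the retinal pigment epithelium and lens, was at 6671, 7873 and 8394 CPM in the controls and 5748, 20235 and 7388 CPM in the exposed libraries. Only exposed 2 was above the controls. ola-miR-184-5p, of lens and cornea, was at 7283, 7578 and 6421 CPM against 8409, 10110 and 4053 CPM. chi-miR-96, of sensory hair cells, was at 6151, 8252 and 4974 CPM against 5864, 3049 and 5105 CPM, and its cluster partner chi-miR-182 at 26053, 24961 and 21815 CPM against 24695, 38155 and 20692 CPM. Within exposed 2 these partners thus lay on opposite sides of the controls.

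Among the other organ lists, skin had 2 names above and 2 below 0 (median 0.15), blood and vessels 5 and 8 (median -0.27), liver and gut 2 and 1 (median 0.07), pancreas and endocrine cells 1 and 1 (median -0.02), and the list of cartilage, smooth muscle and connective tissue 1 and 2 (median -0.26). tch-miR-122-5p, the main miRNA of liver cells, was at 13975, 12263 and 9451 CPM in the controls and 14230, 19309 and 3962 CPM in the exposed libraries. It was highest in exposed 2 and lowest in exposed 3, as were 19 of the 117 names, among them ssa-miR-206-5p, mdo-miR-128a-5p and ola-miR-184-5p. By library totals 10 names had this order. sha-miR-200a, of epithelia, was nearly level in 5 libraries, at 9578, 9594 and 9627 CPM in the controls and 8998 and 10274 CPM in exposed 1 and 3, and was at 2865 CPM in exposed 2. tgu-miR-217-5p, of the pancreas, was at 2063, 1889 and 1772 CPM against 1902, 1506 and 1879 CPM.

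In lists by family or cluster, single exposed libraries stood apart. The miR-17-92 list, of clusters linked to cell division, had 7 names above 0 and 3 below, with a median log2 fold change of 0.37. Its median difference from the control mean was -0.13 in exposed 1, 0.14 in exposed 2 and 1.04 in exposed 3. dre-miR-93 was at 682, 432 and 706 CPM in the controls and 528, 896 and 2008 CPM in the exposed libraries, and oan-miR-20a-5p at 4115, 2702 and 4078 CPM against 2929, 4735 and 11154 CPM. ola-miR-19b, with the near-identical ssa-miR-19c-4-5p, was at 348, 357 and 428.9 CPM against 373, 414 and 988 CPM. In these names exposed 3 was the highest of the 6 libraries, while ssa-miR-18a-5p of the same list was at its lowest there. The other names below 0 were sha-miR-92a (-0.23) and chi-miR-18b-5p (-0.09), and ola-miR-17 and hsa-miR-25-5p were at 0.13 each. In the test on the highest count per miRNA number described below, miR-92 was at 12138, 10038 and 13350 CPM against 12106, 8373 and 11181 CPM. Its level in exposed 3 was thus not above the controls.

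The list of miR-10 and miR-196, which lie in the Hox clusters that pattern the body axis, had 3 names above 0 and 2 below, with a median of 0.33. Its median difference from the control mean was 0.04 in exposed 1, 1.07 in exposed 2 and -0.59 in exposed 3. mdo-miR-10b-5p was at 1924, 2651 and 2229 CPM in the controls and 2326, 5777 and 1228 CPM in the exposed libraries, and tur-miR-10-5p at 18, 20.2 and 17 CPM against 17.7, 48.7 and 14.9 CPM. Exposed 2 was the highest and exposed 3 the lowest of the 6 libraries for both. The 3 names above 0 were all of miR-10. The 2 below were of miR-196, hhi-miR-196 with -0.04 and tgu-miR-196 with -0.26. In the test on the highest count per miRNA number described below, miR-196 was at 3617, 3192 and 3452 CPM against 3113, 3225 and 2603 CPM. Exposed 2 was there within the control range.

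**Figure D4:**
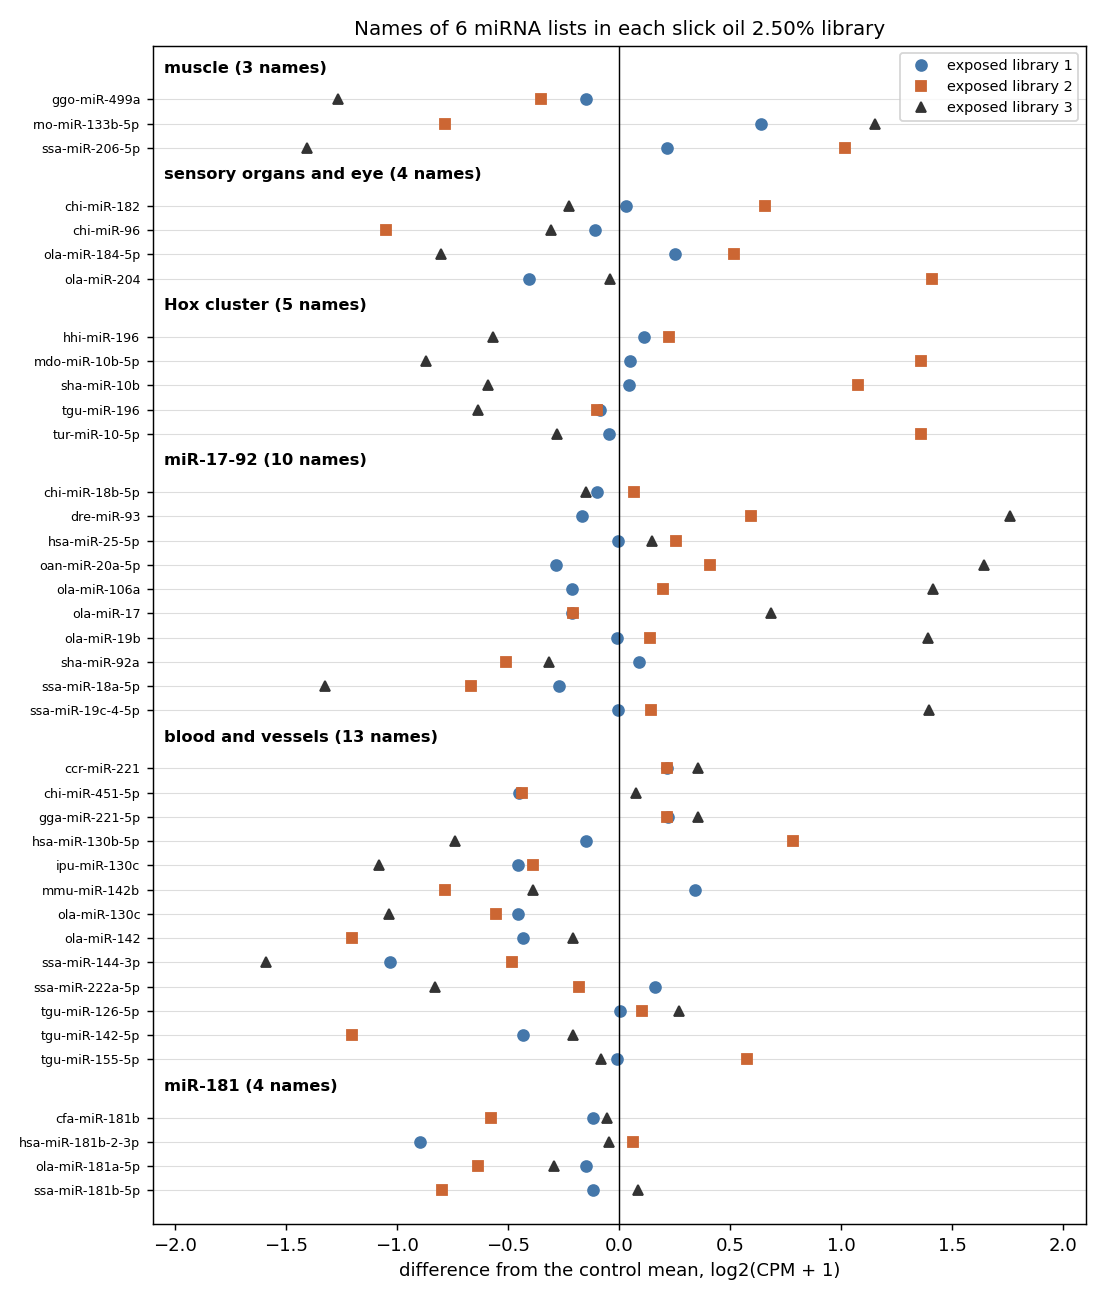
Difference from the control mean on the log2(CPM + 1) scale in each of the 3 slick oil 2.50% libraries (horizontal axis), for every name counted in every library of 6 miRNA lists (vertical axis). In the miR-17-92 list exposed 3 had a median of 1.04, and in the Hox cluster list exposed 2 had a median of 1.07 and exposed 3 of -0.59.

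The miR-181 list had 0 names above and 4 below 0, with a median of -0.25. ola-miR-181a-5p, of a family made in brain and immune cells, was at 44762, 35204 and 46969 CPM in the controls and 37868, 27044 and 34251 CPM in the exposed libraries, and exposed 1 lay above control 2. The miR-23/24/27 list had 3 names above and 5 below 0 (median -0.05), let-7 2 and 1 (median 0.39), the list of miR-99, miR-100 and miR-125 1 and 1 (median -0.09), and the fish miRNAs 5 and 3 (median 0.35). The miR-29/30 list had 2 names above and 0 below (median 0.21). The lists of the early embryo and of miR-15/16 held 1 name each, ola-miR-430a and aca-miR-16a-5p, with -0.30 and -0.06. Of the 2 names in the list of damage and hypoxia, aca-miR-34b-5p, a target of p53 in mammals, was at 30.1, 10.7 and 24.2 CPM against 27.6, 26.7 and 47.9 CPM. ola-miR-21, induced by injury in several tissues, was at 70958, 61398 and 61143 CPM against 62911, 57811 and 64422 CPM, with a log2 fold change of -0.06 ± 0.22.

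Names at 0 shaped what could be compared. Every listed name was counted in control 1, whereas 59 and 44 were at 0 in controls 2 and 3 and 45, 59 and 57 in exposed 1 to 3. At a 0, counting error alone allows up to 3 counts. No name was at 0 in all 3 exposed libraries and counted in all 3 controls. Of the 27 names at 0 in all exposed libraries, 18 were also at 0 in controls 2 and 3, among them aca-miR-1a-1-5p with 108155 counts and mmu-miR-183-5p with 358399 counts in control 1. Some names at 0 had a near-identical partner that was counted in the same library. ola-miR-128 had 261002, 546953 and 0 counts in the controls and 0, 338149 and 0 in the exposed libraries, while mdo-miR-128a-5p had 260984, 546945 and 460802 against 394510, 338161 and 116900. In the libraries that counted both, they differed by at most 18 counts.

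Taken by miRNA number, the listed names stood for 120 numbers, 46 of which had more than 1 name, and 91 were counted in every library under at least 1 name. Counted in all controls but at 0 under every listed name in 1 exposed library were 6 numbers. They were miR-7, miR-129, miR-728 and miR-1306 in exposed 2, miR-216 in exposed 3 and miR-2188 in exposed 1. The neural and endocrine miR-7 had highest counts of 6412, 6963 and 6910 in the controls and 6336, 0 and 3932 in the exposed libraries. miR-129, of nerve cells, had 44977, 37332 and 45376 against 55889, 0 and 17769. Each was thus well counted in 5 libraries and at 0 under every listed name in exposed 2. A control had such zeros too, as miR-724 had highest counts of 38616, 0 and 49249 in the controls and miR-140 had 19847, 0 and 31354. Since every listed name was counted in control 1, counts of another library under a name not listed could not be seen.

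Tested on the highest count per number, a choice made after seeing the data, edgeR called 0 of 104 numbers (0%), with 5 (4.81%) at an unadjusted p under 0.05. These were miR-734 (log2 fold change 0.75 ± 0.19), miR-203 (1.09 ± 0.35), miR-144 (-0.92 ± 0.33), miR-18 (-0.65 ± 0.25) and miR-199 (0.54 ± 0.21), and the groups did not overlap for any of the 5. The adjusted p was 0.897 for each. Groups without overlap were not particular to these 5. Among the other numbers tested they were found for miR-27, miR-430, miR-132, miR-145 and miR-728, at unadjusted edgeR p from 0.10 to 0.64. For miR-203 the highest count came from dre-miR-203b-5p in control 1 and exposed 1 and 2 and from pma-miR-203a-3p in the other libraries, and in the sums per number its groups overlapped. miR-734, miR-144 and miR-199 have 1 name each, so for them the same counts were tested again in another scaling. In the scaling of this fit aca-miR-199a-5p, the name of miR-199, was at 10721 CPM in exposed 3. Its highest control was at 9356 CPM. In the scaling of the 117 names these levels were 9403 and 9562 CPM. Summed over the names of a number, the count of calls was also 0 of 104 (0%), with 2 (1.92%) at an unadjusted p under 0.05.

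The same controls served slick oil at 1.25% and 5.00%, so the fold changes against them share those libraries and are set side by side without a test. ssa-miR-144-3p had a log2 fold change of -0.28 ± 0.20 at 1.25% (adjusted p = 0.913), -0.97 ± 0.31 at 2.50% and -1.60 ± 0.20 at 5.00% (adjusted p = 0.002). pma-miR-203a-3p had 0.36 ± 0.18 at 1.25%, 0.88 ± 0.30 at 2.50% and 0.62 ± 0.17 at 5.00% (adjusted p = 0.057). ssa-miR-734-5p had 0.96 ± 0.19 at 1.25% (adjusted p = 0.095), 0.67 ± 0.24 at 2.50% and 0.17 ± 0.17 at 5.00%. The estimates of the erythroid, the skin and the fish name were thus ordered differently over the concentrations. ssa-miR-18a-5p was at -0.14 ± 0.16, -0.70 ± 0.33 and -0.65 ± 0.14 in that order, with an adjusted p of 0.032 at 5.00%. dre-miR-124-4-5p was at -0.14 ± 0.23, 0.14 ± 0.30 and -0.84 ± 0.17, with an adjusted p of 0.029 at 5.00%. Within their own tables edgeR called 0 of 117 names (0%) at 1.25% and 6 of 109 (5.5%) at 5.00%.

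**Figure D5:**
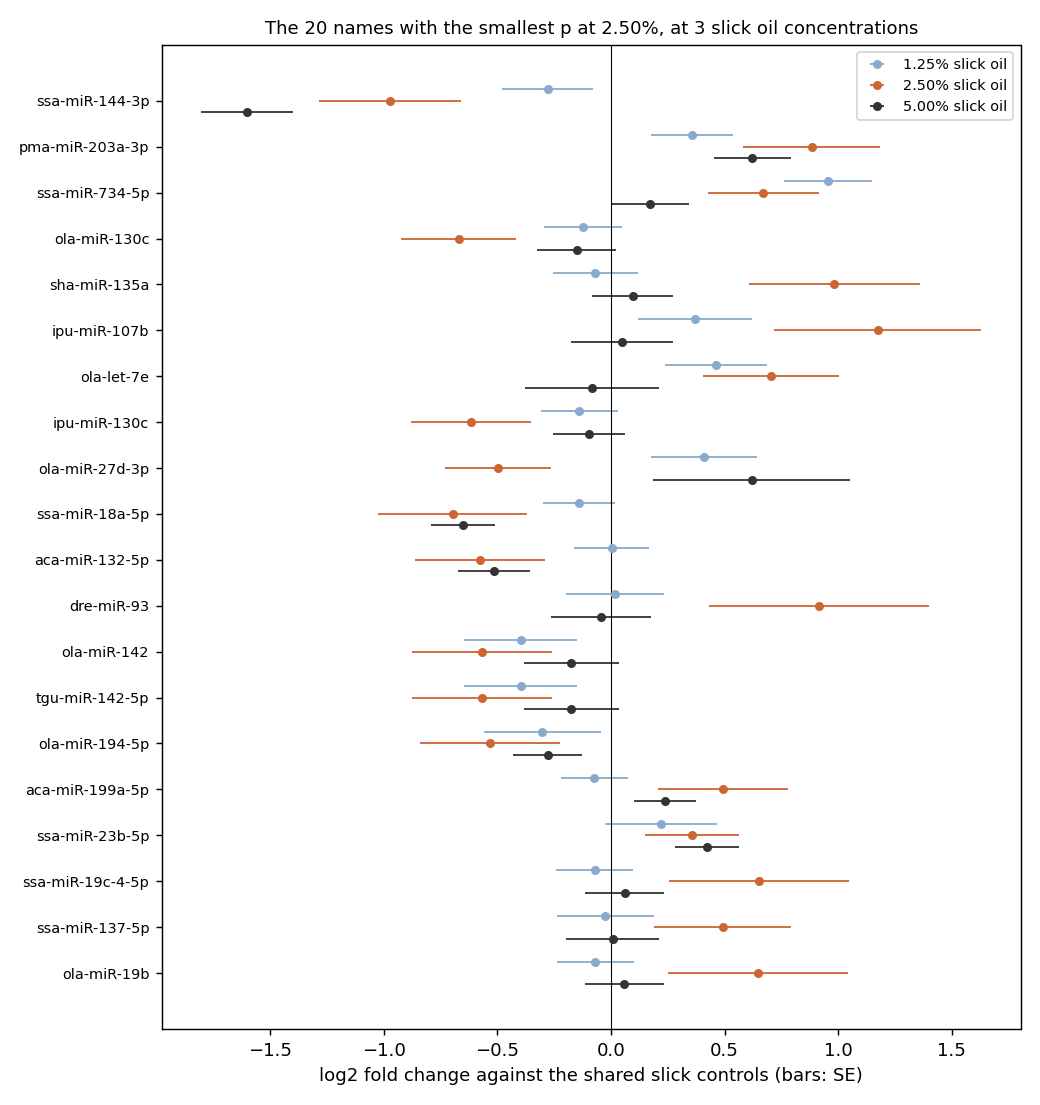
Log2 fold change against the shared slick oil controls (horizontal axis, bars are SE) at 1.25%, 2.50% and 5.00% for the 20 names with the smallest p at 2.50%. ssa-miR-144-3p was the farthest below 0 at 5.00% (-1.60), ssa-miR-734-5p the farthest above at 1.25% (0.96), and sha-miR-135a (0.98) and ipu-miR-107b (1.17) lay away from 0 at 2.50%.

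The exposed groups were compared with each other in fits to all 12 slick oil libraries. The controls thus entered the count filter, the scaling and the estimate of variation, though not the difference itself. Against 1.25% edgeR called 0 of 162 names (0%), with 9 (5.56%) at an unadjusted p under 0.05, and 0 of 100 names counted in all 12 libraries (0%), with 11 (11%). Among the latter, dre-miR-737-5p differed by 1.02 ± 0.29 and sha-miR-135a by 1.06 ± 0.31 (2.50% minus 1.25%, log2, adjusted p = 0.202 for both), and ssa-miR-144-3p by -0.67 ± 0.28 (adjusted p = 0.397). In the fit of 1.25% and the controls alone, sha-miR-135a was at 246, 232 and 193 CPM in the 1.25% libraries. In the contrast, sha-miR-135a was called without exposed 1, and aca-miR-199a-5p without exposed 3, each as the 1 call among all names. DESeq2 called 15 of the 162.

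Against 5.00% edgeR called 0 of 162 names (0%), with 16 (9.88%) at an unadjusted p under 0.05, and 0 of 100 (0%), with 13 (13%). dre-miR-124-4-5p differed by 0.90 ± 0.27 (2.50% minus 5.00%, log2, adjusted p = 0.288), sha-miR-135a by 0.80 ± 0.31 (adjusted p = 0.288), oan-miR-145-5p by -0.55 ± 0.20 (adjusted p = 0.288) and ssa-miR-144-3p by 0.58 ± 0.28 (adjusted p = 0.361). Calls among all names came with single libraries left out. Without exposed 1 there were 3, ipu-miR-222a, oan-miR-145-5p and sha-miR-135a, and without exposed 2 there was 1, ssa-miR-15b-5p. Without 5.00% library 1 there was 1, mdo-miR-138, and without 5.00% library 3 there were 2, mmu-miR-466i-5p and ssa-miR-723-3p. DESeq2 called 19 of the 162.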

How the data were processed

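The authors deposited whole-number read counts per miRNA name for each comparison, per the file headers, and 3 such tables were used, those of slick oil at 1.25%, 2.50% and 5.00%. Their separate result table was made with DESeq2, per the submitters' processing notes, which give no version. Per the file headers it holds the authors' mean signal per group, a deposited score (the exposed minus the control mean), the authors' log2 fold change and the deposited p-value with its FDR. Not given in the sources used here are the aligner, the release of miRBase and how reads that match more than 1 name were counted. No miRNA sequences were used here. All columns were matched by label (0 unmatched).

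The counts were tested in R 4.3.3 with edgeR 4.0.16 (TMM, glmQLFit and glmQLFTest, no covariate) on names with a count of 10 or more in 3 or more libraries. Benjamini-Hochberg adjustment ran over all names of a fit, and an adjusted p under 0.05 was a call. The SE was taken as the size of the log2 fold change over the root of its F statistic. The common biological variation was high in the fit to all names, so names counted in every library were also fitted alone. DESeq2 1.42.0 was an alternative. Fits across concentrations used the 185 of 192 shared names whose control counts were equal in the 3 tables. The method was also run on simulated counts. These had equal variation in both groups, less than in the data, and no names that switch between 0 and high counts. That run therefore does not show how many changes would be found in these data. CPM per library are scaled by TMM, and differences from the control mean are on the log2(CPM + 1) scale. Counting error at these depths is small for abundant names, and the labels name no molecular identifiers, so limits at 0 cover counting error only.

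Sums per miRNA number count reads under near-identical names more than once, so the highest count per number was added after seeing the data. The tests have no replicate term. Libraries with the same number met the rule for pairs, since in the control and exposed libraries their deviations from the group means correlated at 0.45, 0.62 and 0.39 across names (0.152, 0.288 and 0.329 without miR-26), and the fit with the number as a block was an alternative. The members and lists were chosen with earlier results of these data known. Named were the 20 names with the smallest p among names counted in every library, the 5 most abundant in the controls, the first of each list by p, those called in a contrast or at a higher concentration before, and names absent from 1 group (none met this). Since every listed name was counted in control 1, none could be absent from the controls. Other names were chosen after their values were seen.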

Additional observations from a re-analysis of the deposited data

Results flagged for a closer look

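A pair of names lay on opposite sides of the control mean at 2.50% and 5.00% slick oil, with every library of a concentration on the same side under TMM scaling. The most abundant name, aca-miR-9-5p, was below the control mean in all 3 libraries at 2.50% and above it in all 3 at 5.00%. In the fit of 5.00% and the controls alone it was at 385138, 367504 and 407241 CPM, beside 362398, 365436 and 310969 CPM in the controls. The difference in the fit to all 12 slick libraries was -0.51 ± 0.17 (2.50% minus 5.00%, log2, unadjusted p = 0.0164, adjusted p = 0.332 in edgeR), which did not pass. By library totals in place of TMM exposed 3 was 0.08 above the control mean, so the 3 libraries at 2.50% were then not all below it.

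In the fit of 5.00% and the controls alone, tgu-miR-217-5p, of the pancreas, was at 2082, 1901 and 1991 CPM at 5.00%. The controls there were at 1884, 1811 and 1688 CPM. Its difference in the fit to all 12 slick libraries was -0.34 ± 0.18 (adjusted p = 0.408), which did not pass either. Exposed 1 was only 0.002 below the control mean at 2.50%.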

How the results depend on the processing

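Calls by edgeR stayed at 0 for all names, for names counted in every library, for sums per miRNA number and for both contrasts between concentrations under the other planned settings, apart from those given here. DESeq2 called 1 of all names (ssa-miR-734-5p), 1 of the sums per number (miR-734), 15 names in the contrast with 1.25% (9 higher, 6 lower) and 19 in that with 5.00% (8 higher, 11 lower). A fit to only the 2 groups called 1 name against 1.25%, fru-miR-30c. That name was at 0 in all 3 libraries at 2.50% and in control 2, where oar-miR-30d of the same number was counted. Why only this fit called it was not tested. With each library left out in turn the calls ranged from 0 to 2 for all names, 0 to 0 for names counted in every library and for the sums, 0 to 1 against 1.25% and 0 to 3 against 5.00%. With the replicate number as a block the count was 0 in each of these comparisons, so pairing the libraries changed no call. Of the log2 fold changes of the named miRNAs, 481 values under other settings kept their sign or side and 18, all of uncalled names such as mdo-miR-128a-5p and aca-miR-26-5p, changed sign. Leaving out the TMM factors moved the median log2 difference between 2.50% and 5.00% from 0.08 to 0.29. At 3 libraries a group and a median SE of 0.32, small differences were not detectable, and larger ones could be missed too. Log2 fold changes of -0.97 (ssa-miR-144-3p) and 1.17 (ipu-miR-107b) were not called.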
